A study of Mus musculus with 36 samples.

Results

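The 10 genes described here are grouped as feedback inhibitors and corepressors of SMAD signalling by transforming growth factor β (TGFβ) and its relatives. Among them are the inhibitory SMAD Smad7, the ubiquitin ligases Smurf1 and Smurf2, and the membrane proteins Bambi and Pmepa1. The others are the nuclear corepressors Ski, Skil, Tgif1 and Tgif2, and the zinc finger repressor Klf10, which can repress Smad7 and so is not simply a brake. All 10 are described by their transcripts. The 10 genes were taken by gene name from 3 tables of normalized read counts, and all 10 were found in each: 10 of 18758 genes in the organoid table, 10 of 18256 in the tumour cell table and 10 of 19834 in the embryoid body table. The tables hold 20 mouse RNA-seq libraries of a 36-sample series on TGFβ and the transcription factor RREB1; its 15 ChIP-seq samples and 1 ATAC-seq sample are not analysed here. KSIC_806 pancreatic ductal adenocarcinoma (PDA) cells, labelled WT or KO for RREB1 and all marked S4 (meaning not given in the sources used here), received SB505124, which blocks the kinase of the type I receptors, at 2.5 µM for 6 h, or TGFβ at 100 pM for 1.5 h, with 2 libraries in each of 4 groups. The E14 embryonic stem cell libraries, likewise WT or KO for RREB1 by label, comprise undifferentiated cells (day 0) and day 4 embryoid bodies, with 2 libraries in each of 4 groups. CIY_organoid cultures of pancreatic epithelium grew with or without doxycycline at 1 µg/mL from plating and then had either treatment at those doses and times, with 1 library a condition; the labels do not say what doxycycline induces. Each comparison of TGFβ with SB505124 therefore carries the ligand, the lack of the receptor inhibitor and a shorter time, and these cannot be told apart. No untreated PDA or organoid library was among them, so a rise under TGFβ is a rise over inhibited cells. The labels name neither clones nor separate cultures. Each p-value rests on the spread between the 2 libraries of a group, pooled over the 4 groups of a table. That spread may be technical, and KO cannot be told apart from any other difference between the lines.

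TGFβ and activin bind paired receptor kinases that phosphorylate SMAD2 and SMAD3, which join SMAD4 and switch genes on or off in the nucleus. Several of the genes they switch on shut the pathway down again. SMAD7 blocks the type I receptor and brings SMURF ligases to it, BAMBI is a receptor decoy without a kinase, PMEPA1 ties up receptor SMADs, SKI and SKIL hold SMAD complexes in a repressed state, TGIF proteins recruit corepressors to them, and KLF10 is an early gene of the response that can repress Smad7.

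The bases ahead of a start site are shown for the 5 of 10 members that the RefSeq promoter table holds. These are Ski, Smurf1 and Smurf2, which rose under TGFβ in WT PDA cells, Tgif1, which did not pass the test, and Tgif2, which differed between the lines. Smad7, Skil, Pmepa1 and Klf10, which rose most in WT PDA cells, and Bambi are not in it, so sequence was not compared with response. Each stretch runs 5′ to 3′ on the gene's strand in build GRCm38.p6 and is limited to bases outside the annotated gene. Capitals mark CAGAC, the core of a SMAD-binding element, and GGCGC, a GC-rich SMAD site, on either strand. GGCGC and its reverse complement overlap each other in GGCGCC.
Ski, chr4:155222536-155222785, minus strand: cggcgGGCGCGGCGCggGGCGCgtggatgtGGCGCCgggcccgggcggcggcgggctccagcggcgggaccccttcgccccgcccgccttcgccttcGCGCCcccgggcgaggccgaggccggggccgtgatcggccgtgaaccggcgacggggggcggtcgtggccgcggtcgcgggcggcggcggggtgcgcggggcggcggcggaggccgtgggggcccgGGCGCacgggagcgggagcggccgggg
Smurf1, chr5:144965900-144966080, minus strand: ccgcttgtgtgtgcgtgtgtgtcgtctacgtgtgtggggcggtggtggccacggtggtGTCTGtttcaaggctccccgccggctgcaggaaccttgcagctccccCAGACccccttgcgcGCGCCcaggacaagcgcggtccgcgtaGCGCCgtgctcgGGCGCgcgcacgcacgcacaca
Smurf2, chr11:106920748-106920965, minus strand: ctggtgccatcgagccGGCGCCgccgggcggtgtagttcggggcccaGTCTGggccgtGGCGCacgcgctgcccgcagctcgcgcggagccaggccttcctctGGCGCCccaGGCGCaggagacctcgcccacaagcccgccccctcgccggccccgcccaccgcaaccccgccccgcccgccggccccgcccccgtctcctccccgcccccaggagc
Tgif1, first of 5 start sites, chr17:70853533-70853782, minus strand: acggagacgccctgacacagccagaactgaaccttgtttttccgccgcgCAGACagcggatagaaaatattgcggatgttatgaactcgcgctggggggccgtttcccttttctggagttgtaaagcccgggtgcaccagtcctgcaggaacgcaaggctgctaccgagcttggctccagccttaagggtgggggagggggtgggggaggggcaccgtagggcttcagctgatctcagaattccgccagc
Tgif2, chr2:156839757-156839816, plus strand: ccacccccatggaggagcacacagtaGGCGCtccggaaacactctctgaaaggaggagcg
Over the whole 250 bases ahead of each start, the Ski window held 7 matches to GGCGC and none to CAGAC, with a GC content of 87.6%. The Smurf1 window held 4 GGCGC and 2 CAGAC, and the Smurf2 window 6 and 1. The first Tgif1 window held 1 CAGAC and no GGCGC, and the Tgif2 window 2 GGCGC and no CAGAC. Among all 32851 windows of this length in the table, 42.2% held CAGAC and 32.0% held GGCGC. The palindrome GTCTAGAC, present in 0.167% of windows, was in none of these windows of the 5 members. TGTCA, the core bound by TGIF proteins, was in 40.0% of all windows and once in the first Tgif1 window. The shares over all windows were not matched for GC content. These are matches of letters, not measured binding.

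Rreb1, the gene named in the KO label, was detected in every library labelled KO, and its level against WT depended on the condition. In PDA cells it read 1458 and 1501 (WT, SB505124), 4293 and 4212 (WT, TGFβ), 2164 and 2195 (KO, SB505124) and 2886 and 2560.4 (KO, TGFβ) normalized counts. On the log2 scale KO minus WT was 0.559 ± 0.076 under SB505124 (limma, adjusted p = 0.000564). Under TGFβ it was -0.645 ± 0.076 (adjusted p = 0.000364), and the responses differed by -1.204 ± 0.107 (adjusted p = 0.000933). In the embryoid body table it read 1086 and 1019 (WT) against 2642 and 2830.0 (KO) at day 0. At day 4 it read 1482 and 1586 (WT) against 1920.5 and 1512 (KO). The log2 difference was 1.378 ± 0.097 at day 0 (limma, adjusted p = 2.35e-08) and 0.152 ± 0.097 at day 4 (adjusted p = 0.198). A count over the whole gene does not show whether a short part was deleted, so it checks nothing about the label, and the groups are called WT and KO only as labelled. Recovered totals were 20.41 M reads for KO SB505124 replicate 1, the shallowest PDA library, and 38.73 to 44.5 for the other 7. They ran from 19.89 to 29.08 in the 7 embryoid body libraries where they could be recovered, and from 23.91 to 35.81 in the organoids. Of 7 ductal epithelial markers, 7 stood at 50 or more in every organoid and WT PDA library and 6 in KO PDA libraries, where Sox9 read 25.5 to 40.8. All 6 pluripotency markers were at 50 or more in every embryoid body group. The WT and KO PDA lines differed in other markers under SB505124. The endothelial cadherin gene Cdh5 read 38.5 to 45.6 in WT and 1328 to 1358 in KO. All 4 endothelial markers summed to 45.9 to 52.0 in WT and 1330.7 to 1359.7 in KO. The others were thus barely detected and did not follow Cdh5. The neural precursor gene Nes read 1074 to 1219 in WT and 18.1 to 24.8 in KO. It made up nearly all of its list, which summed to 1080.2 to 1222.1 and 18.1 to 25.7. The part of such differences in the member results was not tested.

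In PDA cells labelled WT, 8 of the 10 genes were higher under TGFβ than under SB505124 and none was lower (limma, adjusted p under 0.05), where 19.4% of the 13226 genes tested were higher and 36.9% changed. Skil, Smad7, Klf10 and Pmepa1 rose about 5- to 10-fold, Ski 3.01-fold, and Smurf1 and Smurf2 by about 1.5-fold. Tgif1 and Tgif2 did not pass the test. The median log2 fold change of the 10 was 1.77, and that of all genes tested was 0. All 10 genes passed the filter (a value of at least 10 in at least 2 libraries), although Bambi reached 10 in 5 of the 8 libraries and Tgif2 in 7. For Bambi these were every TGFβ library and KO SB505124 replicate 1, which held 5 reads. Either WT SB505124 library also held 5, so Bambi entered the WT test through its TGFβ libraries. Under a stricter filter, which Bambi did not pass, 7 of the 9 members tested were higher and none was lower.

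Smad7 read 680.1 and 788 in WT cells under SB505124, 4509.8 and 4389 under TGFβ, 823 and 867 in KO cells under SB505124, and 3976 and 3722 under TGFβ. Both TGFβ pairs lay far above both SB505124 pairs, and the WT pair lay above the KO pair under TGFβ. The log2 fold change was 2.60 ± 0.09 (SE) in WT (limma, adjusted p = 2.55e-06) and 2.19 ± 0.09 in KO (adjusted p = 4.09e-06). The 2 responses differed by -0.42 ± 0.13 (interaction, limma adjusted p = 0.0526), which missed the threshold. It passed with edgeR on recovered reads (0.0431), quantile scaling (0.0316), the stricter filter (0.0483) and without WT SB505124 replicate 2 (0.0133), and ranged from 0.0133 to 0.188 over all alternatives.

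Smurf1, an E3 ligase of the HECT family, read 4630.1 and 5336 (WT, SB505124), 7180.3 and 7070.3 (WT, TGFβ), 8351 and 8375 (KO, SB505124), and 7253 and 6777 (KO, TGFβ). The KO cells were highest under the inhibitor, and the TGFβ pairs of the 2 lines overlapped. Smurf1 rose by 0.52 ± 0.08 on the log2 scale in WT (limma, adjusted p = 0.00229) and fell by 0.25 in KO (SE 0.08, adjusted p = 0.0392). That fall was lost with DESeq2, without the filter, with the replicate block, with quantile or total-count scaling, and without KO SB505124 replicate 1 (0.156) or 2 (0.161), KO TGFβ replicate 2 (0.158) or either WT TGFβ library (0.0831). The adjusted p ranged from 0.00989 to 0.196 over all alternatives. The difference between the responses, -0.77 ± 0.11, was called by limma (adjusted p = 0.00462) and kept under every alternative run.

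Smurf2, its closest relative, read 1725 and 1612 (WT, SB505124), 2594 and 2546 (WT, TGFβ), 1826 and 1751 (KO, SB505124), and 1824 and 2085 (KO, TGFβ). Only the WT TGFβ pair stood clear of the other 6 libraries. The gene rose by 0.62 ± 0.09 in WT (limma, adjusted p = 0.00124), changed by 0.12 ± 0.09 in KO (adjusted p = 0.284), and the responses differed by -0.50 ± 0.12 (adjusted p = 0.025).

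Pmepa1 read 17994 and 16988 in WT and 18608 and 15004 in KO under TGFβ, against 3200.2 and 3844 in WT and 3598 and 3749 in KO under SB505124. Its counts in WT and KO overlapped under either treatment. The log2 fold changes were 2.32 ± 0.12 in WT and 2.19 ± 0.12 in KO (limma, adjusted p = 1.38e-05 and 1.53e-05), and their difference was -0.13 ± 0.17 (adjusted p = 0.622). Bambi, by contrast, was barely detected: 4.59 and 4.56 (WT, SB505124), 20.5 and 20.4 (WT, TGFβ), 10.1 and 2.75 (KO, SB505124), and 14.5 and 12.7 (KO, TGFβ), which rest on 3 to 25 reads. The WT increase of 1.94 ± 0.49 was called by limma (adjusted p = 0.0178) and lost without either WT TGFβ library (adjusted p = 0.0933 without replicate 1 and 0.0901 without replicate 2, from 0.00313 to 0.0933 over all alternatives). The KO value was 1.18 ± 0.49 (adjusted p = 0.0945), called without KO SB505124 replicate 1 (1.96, adjusted p = 0.01, from 0.01 to 0.418).

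Among the corepressors, Skil (encoding SnoN) had the largest response. It read 1379 and 1200.2 (WT, SB505124), 13316 and 12759 (WT, TGFβ), 1676 and 1575 (KO, SB505124), and 9688 and 10495 (KO, TGFβ). The 4 groups did not overlap: WT was lowest under the inhibitor and highest under TGFβ. The log2 fold change was 3.34 ± 0.09 in WT (limma, adjusted p = 1.2e-06) and 2.63 ± 0.09 in KO (adjusted p = 1.7e-06), and the responses differed by -0.71 ± 0.12 (adjusted p = 0.00834).

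Ski read 1356 and 1511 (WT, SB505124), 4366 and 4259 (WT, TGFβ), 1486 and 1491 (KO, SB505124), and 3248 and 2677 (KO, TGFβ). The lines overlapped under the inhibitor and stood apart under TGFβ. The log2 fold change was 1.59 ± 0.10 in WT and 0.98 ± 0.10 in KO (limma, adjusted p = 3.48e-05 and 0.000302), with a difference of -0.60 ± 0.14 (adjusted p = 0.0249).

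Tgif1, a homeodomain corepressor, had the narrowest range of the members in PDA cells: 3850.0 and 3583 (WT, SB505124), 3718 and 3796 (WT, TGFβ), 4347 and 4267 (KO, SB505124), and 3818 and 4536 (KO, TGFβ). The highest library was 1.27 times the lowest. Its log2 fold changes were 0.02 ± 0.09 in WT and -0.05 ± 0.09 in KO (limma, adjusted p = 0.904 and 0.703), and both changed sign under quantile scaling.

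Tgif2 separated the lines and not the treatments. It read 97.3 and 93.9 (WT, SB505124), 99.2 and 120.3 (WT, TGFβ), 14.1 and 13.8 (KO, SB505124), and 16.3 and 7.27 (KO, TGFβ). Every KO library lay below every WT library, with 7 to 18 recovered reads each against 103 to 130. KO minus WT was -2.70 ± 0.33 on the log2 scale under SB505124 and -3.20 ± 0.33 under TGFβ (limma, adjusted p = 0.000357 and 0.000192). Both calls were kept under every alternative run.

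Klf10 read 1357 and 1228 (WT, SB505124), 6880.3 and 6988 (WT, TGFβ), 1096 and 1100.3 (KO, SB505124), and 5741 and 5825 (KO, TGFβ). KO lay slightly below WT under either treatment, and the responses were close: 2.42 ± 0.07 in WT and 2.40 ± 0.07 in KO (limma, adjusted p = 1.46e-06 and 1.43e-06), with a difference of -0.03 ± 0.10 (adjusted p = 0.862). KO minus WT was -0.23 ± 0.07 under SB505124 (limma, adjusted p = 0.0232) and -0.26 ± 0.07 under TGFβ (adjusted p = 0.0199). Where leaving out a library cost the call, the difference under SB505124 ran from -0.236 to -0.162, the latter without WT SB505124 replicate 1. Under TGFβ it ran from -0.273 to -0.251. The size of the difference thus changed little otherwise, but the call was not kept in every fit. Under SB505124 it was lost without KO SB505124 replicate 1 (0.11) or 2 (0.102), WT SB505124 replicate 1 (0.0812), or WT TGFβ replicate 1 (0.0573) or 2 (0.0574), and also with DESeq2 (0.0845), the compared groups alone (0.11) or the replicate block (0.0531), with a range of 0.00193 to 0.11. Under TGFβ it was lost without KO TGFβ replicate 1 (0.0673) or 2 (0.0587), or WT TGFβ replicate 1 (0.106) or 2 (0.13), with a range of 0.00523 to 0.13.

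**Figure D1:**
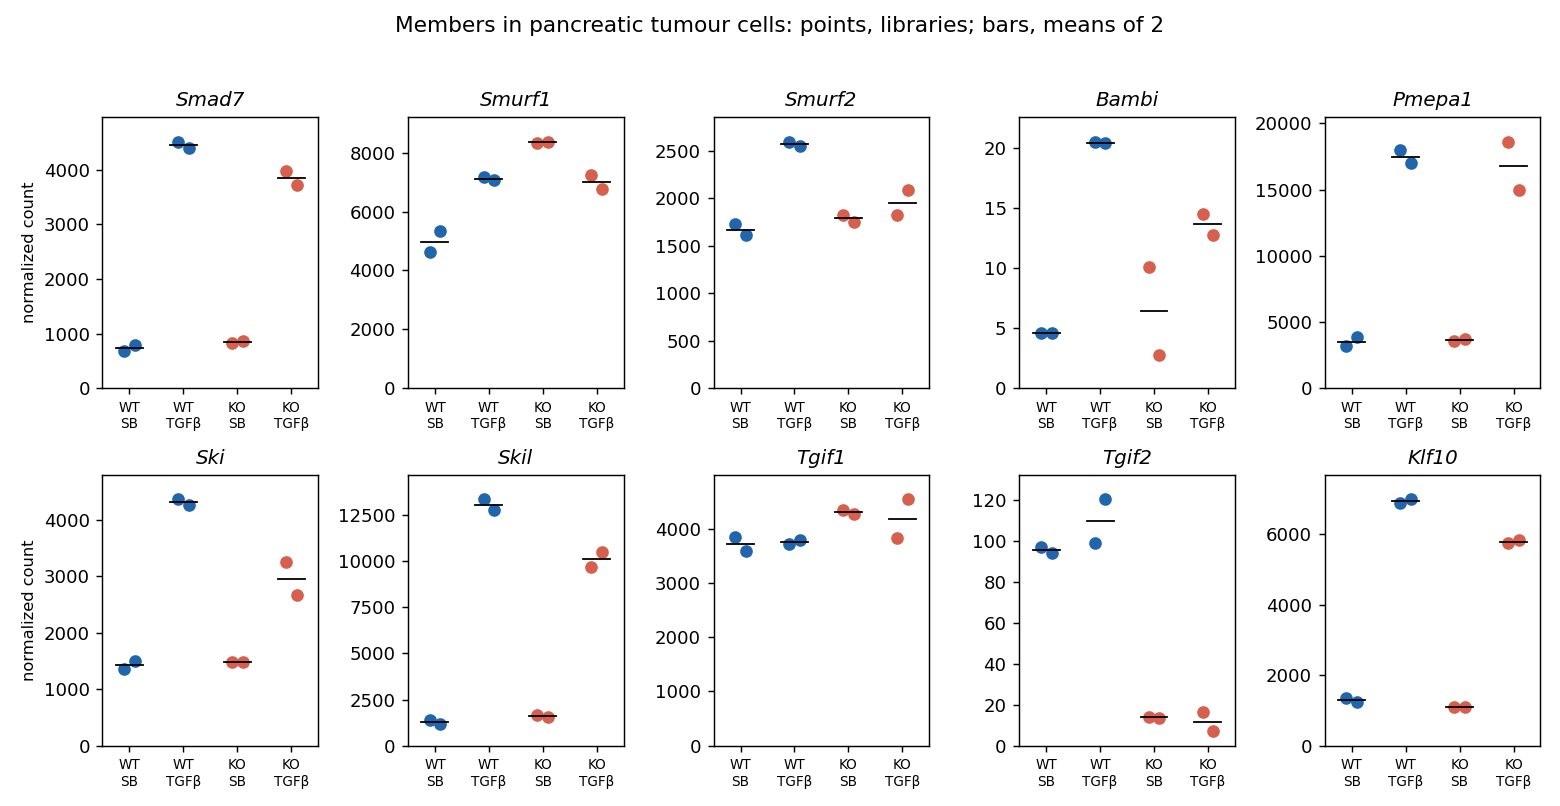
Normalized counts (linear axes from 0) of the 10 genes in the 8 PDA libraries, WT in blue and KO in red, under SB505124 (SB, 6 h) or TGFβ (1.5 h); points are libraries and bars the means of 2. Smad7, Pmepa1, Ski, Skil and Klf10 are high in all 4 TGFβ libraries, Smurf1 is highest in the KO SB505124 pair, and Tgif2 is at 7.27 to 16.3 in KO against 93.9 to 120.3 in WT.

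In KO cells 5 of the 10 genes were higher under TGFβ (Smad7, Pmepa1, Ski, Skil and Klf10) and 1, Smurf1, was lower, against 20.6% of all genes higher, 18.0% lower and 38.7% called in all. Their median log2 fold change was 1.08, and that of all genes 0.02. The difference between the KO and WT responses was called for 4 of 10, all negative: Smurf1, Skil, Ski and Smurf2. Among all genes 21.8% were called, 9.71% positive and 12.1% negative. The median difference was -0.50 for the members and -0.01 for all genes. These 2 comparisons and the interaction share libraries, so they are not independent.

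The calls on the difference for Ski, Skil and Smurf2, but not Smurf1, were lost without some single libraries. Without KO SB505124 replicate 1, the shallow library, the adjusted p (limma) was 0.0924 for Ski, 0.0528 for Skil and 0.106 for Smurf2, and without WT TGFβ replicate 1 it was 0.11, 0.0578 and 0.115. Without KO SB505124 replicate 2 it was 0.0905 for Ski and 0.0789 for Smurf2, and without WT TGFβ replicate 2 it was 0.096 and 0.101. Over all alternatives it ranged from 0.00839 to 0.11 for Ski, 0.000345 to 0.0578 for Skil and 0.016 to 0.115 for Smurf2, and among all genes the number called, 2886, ranged from 764 (without WT TGFβ replicate 1) to 3881 with 1 library left out.

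**Figure D2:**
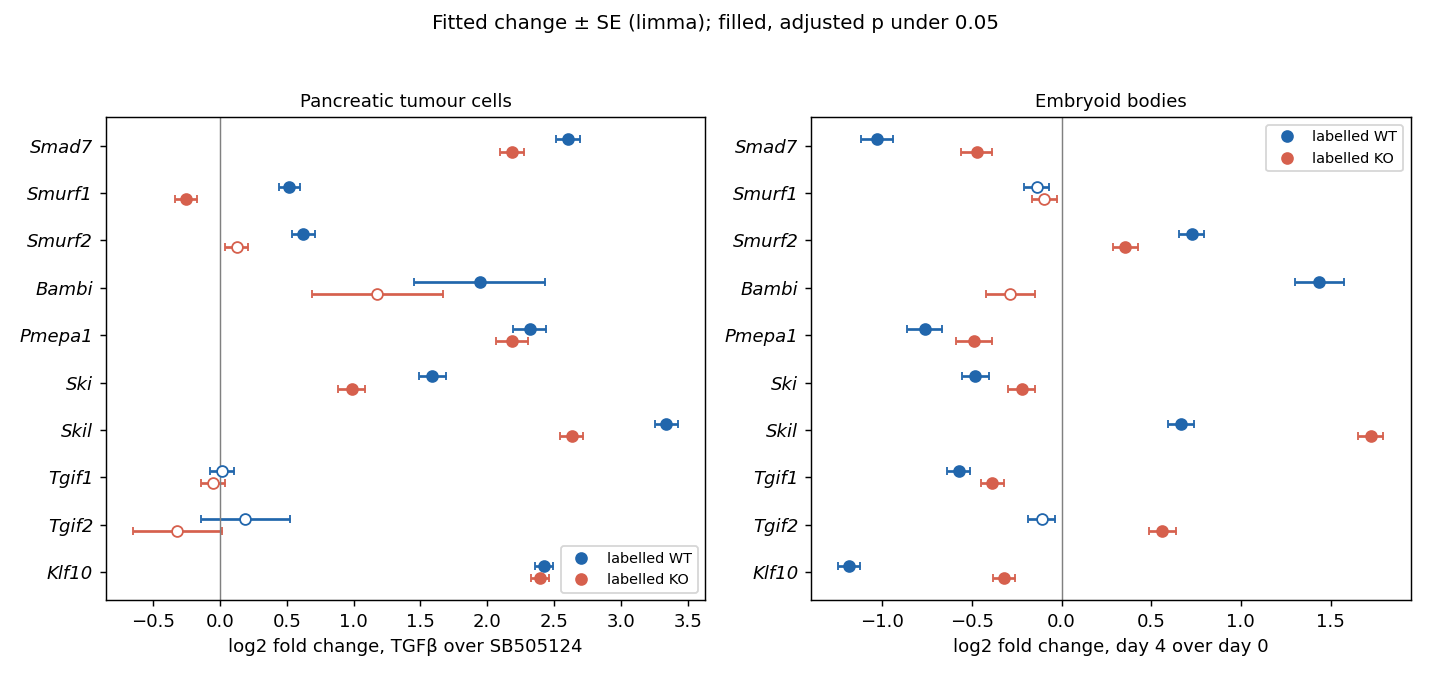
Fitted log2 fold change ± SE (limma) of each gene in WT (blue) and KO (red), for TGFβ over SB505124 in PDA cells (left) and day 4 over day 0 in embryoid bodies (right); filled points have an adjusted p under 0.05. On the left every red point lies at or left of its blue partner, furthest for Smurf1 (-0.25 against 0.52), Bambi (1.18 against 1.94) and Skil (2.63 against 3.34); on the right Bambi and Tgif2 lie on opposite sides of 0.

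Under SB505124 alone, 2 members were higher in KO (Smurf1 by 0.75 ± 0.08 and Skil by 0.34 ± 0.09 on the log2 scale) and 2 lower (Tgif2 and Klf10), where 28.9% of all genes were higher, 27.2% lower and 56.2% called. Without KO SB505124 replicate 1, 2 members were called. Rescaling all libraries to the same total shifted the median of all genes by -0.16 in this comparison, and Skil was then not called (0.18, limma adjusted p = 0.0978, from 0.0037 to 0.0978 over all alternatives); it was also lost without KO SB505124 replicate 1 (0.0907). Under TGFβ, 5 members were lower in KO and none higher (Ski by -0.55 ± 0.10, Skil by -0.37 ± 0.09, Smurf2 by -0.40 ± 0.09, Tgif2 and Klf10), where 21.2% of all genes were higher, 19.0% lower and 40.2% called. Without WT TGFβ replicate 1, and likewise without replicate 2, Ski and Tgif2 were the 2 still called; Skil then had an adjusted p of 0.0929 and 0.0568 and Smurf2 of 0.0639 and 0.0511. Skil was also lost without KO TGFβ replicate 1 (0.0527), and the ranges over all alternatives were 0.00346 to 0.0929 for Skil and 0.00285 to 0.0639 for Smurf2.

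Cells of another type were looked for beside the TGFβ results. The summed count of 6 fibroblast markers was 73.9 to 91.8 under SB505124 and 388.8 to 433.6 under TGFβ in WT, and 130.3 to 134.8 and 410.1 to 426.0 in KO. Of the 6, Col1a1, itself a TGFβ target, and Pdgfra were higher under TGFβ in both lines, at 235 to 260 against 15.6 to 25.5 (Col1a1) and 134 to 148 against 33.7 to 45.0 (Pdgfra) in WT. Col3a1 read 9.09 to 27.5 over the 8 libraries, and Col1a2, Pdgfrb and Dcn read 0 to 1.84, 0 to 0.918 and 0 to 2.73. The part of such cells in the results was not tested.

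Other genes of the pathway were counted from lists chosen with earlier results of these data known. Among all genes tested, 19.4% rose and 17.6% fell in WT, 20.6% rose and 18.0% fell in KO, and 21.8% differed in response. List counts near these shares, here and in the next paragraph, are not read as particular to a list. Of 13 tested direct SMAD2/3 targets outside the members, 9 rose and 2 fell in WT PDA cells under TGFβ, and 9 rose and 1 fell in KO (medians 1.49 and 1.20). The difference between the KO and WT responses was called positive for 3 and negative for 4 (median -0.54). The 3 with the smallest adjusted p were Cyr61 (1.50 ± 0.09), Cdkn1a (-0.96 ± 0.08) and Ctgf (0.98 ± 0.09). Bhlhe40, a transcriptional repressor, rose by 2.76 ± 0.07 in WT and 2.25 ± 0.07 in KO on the log2 scale. Of 11 other brakes on SMAD signalling, 3 rose and 1 fell in WT and 2 rose and 2 fell in KO. Ldlrad4, which encodes a membrane protein related to PMEPA1, rose by 1.78 ± 0.14 in WT and 1.38 ± 0.14 in KO, and Smad6, the other inhibitory SMAD, by 1.69 ± 0.29 and 2.40 ± 0.29 (limma, adjusted p = 0.00366 and 0.000619).

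Of 5 tested receptor and common SMADs, 2 rose in WT, whereas in KO 1 rose and 2 fell, and the responses differed for 3. Smad4, the shared partner of all receptor SMADs, read 2520 ± 113 under SB505124 and 3468 ± 128 under TGFβ in WT, and 3255 ± 175 and 1660 ± 20.0 in KO (SD, n = 2), a difference between responses of -1.43 ± 0.10 (limma, adjusted p = 0.000438). Of 7 tested receptors, 3 rose and 1 fell in either line, and the responses differed for 2. Tgfbr1, the receptor that SMAD7 blocks, rose by 0.98 ± 0.10 in WT, and its response was lower by 0.63 in KO (interaction -0.63, SE 0.14, adjusted p = 0.0188). Of 7 ligands, 2 rose in WT, and in KO 1 rose and 2 fell; Inhba, the activin A chain, rose by 1.44 ± 0.09 in WT and fell by 0.58 in KO (SE 0.09). Of 8 corepressor partners of SKI and TGIF, 3 rose and 1 fell in WT and 2 rose and 1 fell in KO. The E3 ligase Arkadia marks SKI and SKIL proteins for degradation. Of 5 tested Arkadia and deubiquitinase genes, 0 were called by limma in either response or in their difference. At an unadjusted p under 0.05 these numbers were 0 in WT, 1 in KO and 1 in the difference; edgeR called 0, 1 and 1, and DESeq2 0 in each.

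Embryoid bodies gave another pattern. From day 0 to day 4, 3 members rose and 5 fell in WT, and likewise 3 rose and 5 fell in KO, against 32.3% higher and 30.8% lower (WT) and 29.1% and 30.9% (KO) of the 15227 genes tested. Smad7, Ski, Pmepa1, Tgif1 and Klf10 fell in both, and Skil and Smurf2 rose in both. Bambi passed the test in WT and Tgif2 in KO, and both changes differed between the lines when tested. The median log2 fold change was -0.31 in WT and -0.25 in KO, beside 0 and -0.02 for all genes. Among all genes 63.1% were called in WT and 60.0% in KO, so most genes changed, members or not.

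Smad7 read 1998 and 2046 at day 0 and 901 and 1089 at day 4 in WT, and 2966 and 2971 at day 0 and 2013 and 2268 at day 4 in KO. KO day 4 was about where WT began. The log2 fold change was -1.03 ± 0.09 in WT and -0.47 ± 0.09 in KO (limma, adjusted p = 1.85e-07 and 0.000357), with a difference of 0.55 ± 0.12 (adjusted p = 0.00185).

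The ligases took separate paths. Smurf1 varied by 1.17 times over all 8 libraries (1559.8 to 1826) and limma called it in 0 of the 5 comparisons of this table, although under quantile scaling its change in WT passed (-0.17, adjusted p = 0.0454, from 0.0454 to 0.397 over all alternatives). Smurf2 read 1484 and 1404 at day 0 and 2335 and 2443 at day 4 in WT, and 1678 and 1820.4 at day 0 and 2276 and 2198 at day 4 in KO. Both lines were higher at day 4, by 0.73 ± 0.07 in WT and 0.36 ± 0.07 in KO on the log2 scale (limma, adjusted p = 7.06e-07 and 0.000618), and the changes differed by -0.37 ± 0.10 (adjusted p = 0.00631).

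Bambi, a receptor decoy, read 260.0 and 274 at day 0 and 623 and 842 at day 4 in WT, and 256 and 252 at day 0 and 217 and 200.1 at day 4 in KO. Only the WT day 4 pair was high; the KO day 4 pair was the lowest of all. It rose by 1.44 ± 0.14 in WT (limma, adjusted p = 4.8e-07) and changed by -0.28 ± 0.14 in KO (adjusted p = 0.0837), and the difference was -1.72 ± 0.19 (adjusted p = 4.58e-06). The change in KO missed the threshold but passed it under quantile scaling (-0.37, limma adjusted p = 0.0309). Bambi is also known as a target of bone morphogenetic protein (BMP) signalling. The BMP list, Smad6 included, was chosen with earlier results of these data known. It gave 8 of 9 genes higher and none lower at day 4 in WT, beside 32.3% and 30.8% of all genes. In KO 3 were higher and 2 lower, beside 29.1% and 30.9%, and 6 had a negative difference, beside 28.6%. The part of BMP signalling, or of the cell types present, in the Bambi change was not tested. Id3, an inhibitor of helix-loop-helix factors, read 173.6 ± 12.6 at day 0 and 1856 ± 91.1 at day 4 in WT, and 313.2 ± 39.8 and 317.2 ± 21.2 in KO (SD, n = 2).

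Pmepa1 read 720.3 and 770.4 at day 0 and 419 and 459 at day 4 in WT, and 736 and 835 at day 0 and 531 and 588 at day 4 in KO. It fell in both, with changes of -0.76 ± 0.10 and -0.49 ± 0.10 on the log2 scale (limma, adjusted p = 1.18e-05 and 0.000703). The day 4 level was higher in KO by 0.35 ± 0.10 (adjusted p = 0.00784), lost without KO day 4 replicate 2 (0.054) or WT day 4 replicate 1 (0.0819), with a range of 0.00225 to 0.0819 over all alternatives.

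Skil and Ski, which rose together in PDA cells, went apart. Skil read 5627 and 5094 at day 0 and 8311 and 8678 at day 4 in WT, and 5028 and 5084 at day 0 and 17306 and 16114 at day 4 in KO. The KO day 4 pair stood far above the WT pair of the same day, while the WT and KO day 0 values lay close together. The log2 fold change was 0.67 ± 0.07 in WT and 1.72 ± 0.07 in KO (limma, adjusted p = 1.33e-06 and 9.2e-11), with a difference of 1.06 ± 0.10 (adjusted p = 8.23e-07). Ski read 3966 and 3697 at day 0 and 2799 and 2693 at day 4 in WT, and 3289.5 and 3683 at day 0 and 3144 and 2829.7 at day 4 in KO. Its log2 fold change was -0.48 ± 0.08 in WT (adjusted p = 8.2e-05) and -0.22 ± 0.08 in KO (adjusted p = 0.0219). The KO fall was lost under quantile scaling (0.172), in a fit of the compared groups alone (0.0688), and without KO day 0 replicate 2 (0.221) or KO day 4 replicate 2 (0.14), with a range of 0.00802 to 0.221.

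Tgif1 read 6342 and 6485 at day 0 and 4315 and 4298 at day 4 in WT, and 8636 and 8178 at day 0 and 6302 and 6567 at day 4 in KO. KO lay above WT on each day, by 0.39 ± 0.06 and 0.58 ± 0.06 on the log2 scale (limma, adjusted p = 7.37e-05 and 2.37e-06). Tgif2 read 1262 and 1231 at day 0 and 1154 and 1154 at day 4 in WT, and 1141 and 1192 at day 0 and 1806 and 1643 at day 4 in KO. Only the KO day 4 pair stood apart, and the difference between the changes was 0.67 ± 0.11 (adjusted p = 9.82e-05). The sign of the Tgif2 difference between lines was thus positive here at day 4 (0.58 ± 0.08, adjusted p = 1.34e-05) and negative in PDA cells.

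Klf10 read 4031 and 4050.4 at day 0 and 1779 and 1777 at day 4 in WT, and 7107 and 7041 at day 0 and 5794 and 5522 at day 4 in KO. The groups did not overlap, and KO lay above WT on each day. The change over time was -1.18 ± 0.06 in WT and -0.32 ± 0.06 in KO on the log2 scale (limma, adjusted p = 9.34e-10 and 0.000412), a difference of 0.86 ± 0.09 (adjusted p = 1.77e-06), and at day 4 KO was higher by 1.67 ± 0.06 (adjusted p = 6.55e-11).

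**Figure D3:**
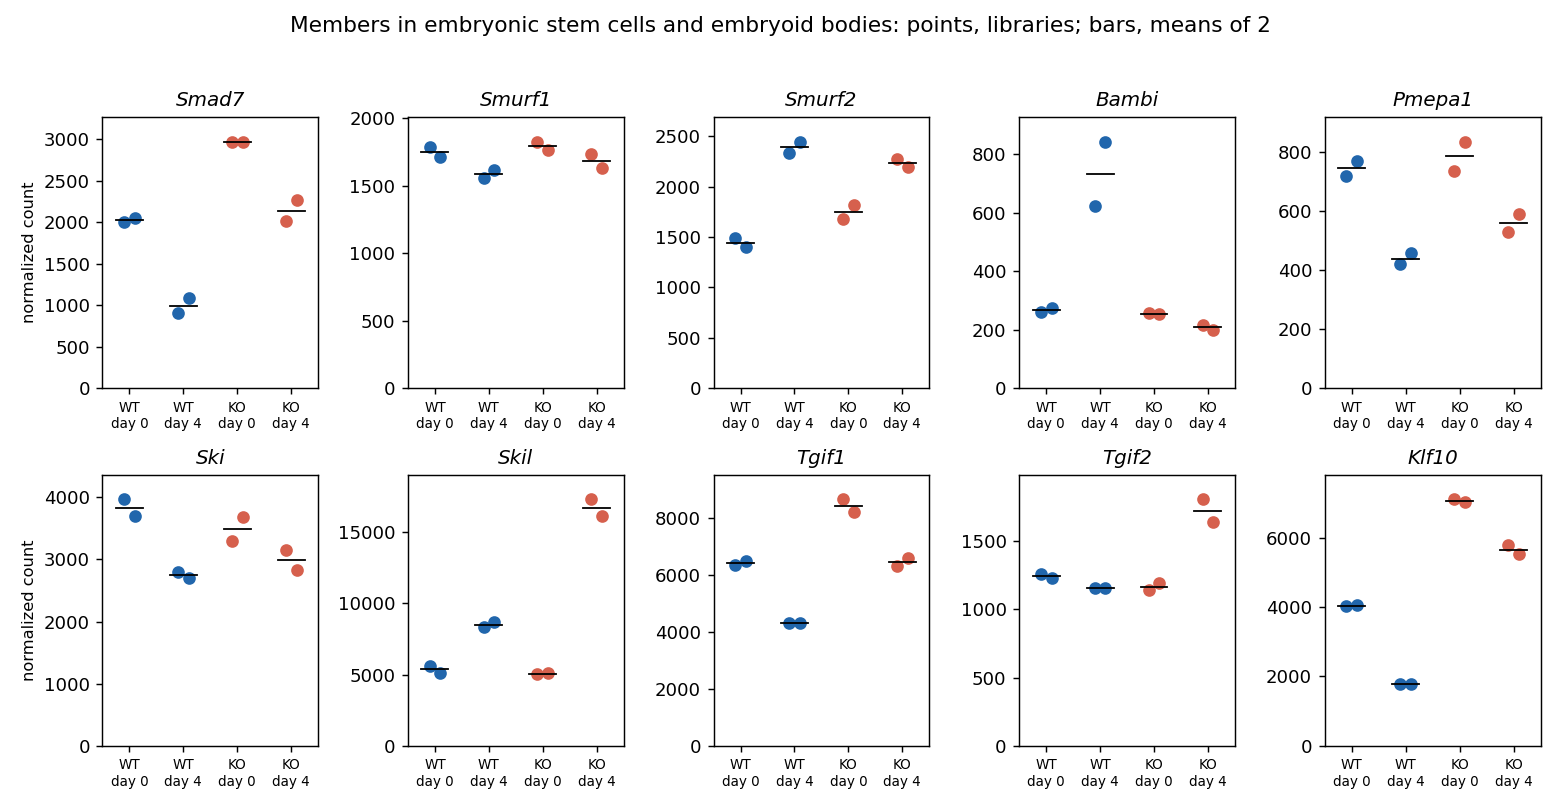
Normalized counts (linear axes from 0) of the 10 genes in the 8 embryonic stem cell and embryoid body libraries, WT in blue and KO in red; points are libraries and bars the means of 2. Skil is highest in the KO day 4 pair (17306 and 16114), Bambi in the WT day 4 pair (623 and 842), and Smurf1 stays between 1559.8 and 1826.

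KO against WT at day 0 gave 4 members higher and none lower (Smad7, Smurf2, Tgif1 and Klf10), beside 33.9% of all genes higher, 33.3% lower and 67.2% called. Under quantile scaling 4 were higher and 3 lower, with Ski (-0.27), Skil (-0.23) and Tgif2 (-0.18) then called, and under total-count scaling Ski was called lower (-0.19). At day 4 it gave 6 higher (Smad7, Pmepa1, Skil, Tgif1, Tgif2 and Klf10) and 1 lower (Bambi), beside 27.8% higher, 28.4% lower and 56.2% called. The median of the members was 0.06 at day 0 and 0.46 at day 4, and that of all genes 0 and -0.01. The change over time differed between the lines for 6 members, 4 upward (Smad7, Skil, Tgif2 and Klf10) and 2 downward (Bambi and Smurf2), beside 27.1% and 28.6% of all genes, or 55.7% in all. Under quantile scaling Pmepa1 (0.39) and Ski (0.31) were called upward as well, which made 8.

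The cell types present moved with these differences. All 5 primitive streak and early mesoderm markers rose in WT and 1 (Eomes) in KO, and their summed count at day 4 was 3677.0 to 6500.7 in WT and 733.3 to 745.1 in KO. The summed count of 6 pluripotency markers was 101815.0 to 102784.6 at day 0 and 31632.7 to 32112.0 at day 4 in WT, and 113938.8 to 119964.6 and 61790.9 to 62843.3 in KO. The 4 endoderm markers summed to 2064.4 to 2834.9 in WT and 146.0 to 165.6 in KO at day 4, and the 6 fibroblast markers, which early mesoderm also expresses in part, to 3442.5 to 4643.1 and 353.8 to 507.0. Of the defining streak markers, Mesp1 read 0 to 1.13 in KO at day 4. In bulk RNA, fewer cells of a type and less RNA per cell cannot be told apart, and the part of cell composition in the member results was not tested.

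Other pathway genes in the embryoid body table were again taken from the lists. Among all genes tested, 32.3% rose and 30.8% fell in WT, and 29.1% rose and 30.9% fell in KO. List counts near these shares are not read as particular to a list. All 6 receptor and common SMADs rose at day 4 in WT, whereas in KO 1 rose and 2 fell; Smad1, a BMP receptor SMAD, read 563.9 ± 53.8 at day 0 and 1137 ± 210 at day 4 in WT, and 1058 ± 24.6 and 831.9 ± 22.3 in KO (SD, n = 2). Of 9 ligands, 3 rose and 4 fell in WT and 3 rose and 6 fell in KO. The Nodal antagonist Lefty2 fell from 7430 ± 31.8 to 2642 ± 203 in WT and rose from 699.7 ± 29.9 to 5424 ± 429 in KO, and Lefty1 moved the same way, with interactions of 4.45 ± 0.11 and 4.40 ± 0.13 (limma, adjusted p = 6.05e-12 and 2.05e-11). Of 8 receptors, 5 rose and 2 fell in WT and 3 rose and 3 fell in KO. Of 12 other direct SMAD2/3 targets, 5 rose and 5 fell in WT and 2 rose and 8 fell in KO. Of 11 other brakes, 4 rose and 5 fell in WT and 3 rose and 3 fell in KO; Smad6 rose by 2.10 ± 0.21 in WT and its change differed by -2.80 ± 0.29 in KO. Of the Arkadia and deubiquitinase genes, 1 of 6 rose and 2 fell in WT, and 2 rose and 2 fell in KO.

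The organoids had 1 library a condition, so their values have no replicate check and no test; the intervals are exact 95% intervals for counting error alone. Without doxycycline, 4 of 10 genes were at least 2-fold higher under TGFβ than under SB505124 (Smad7, Skil, Pmepa1 and Klf10) and none was 2-fold lower, beside 3.56% of 13443 genes 2-fold higher, 2.85% lower and 6.41% either way. With doxycycline, 3 were higher (Smad7, Skil and Pmepa1) and none lower, beside 3.52% higher, 3.24% lower and 6.75% either way. The median log2 ratio of the members was 0.86 without and 0.73 with doxycycline, and that of all genes 0.00 and -0.02.

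Pmepa1 had the widest ratio: it read 1818 under SB505124 and 15007 under TGFβ without doxycycline, and 796 and 16134 with it. The TGFβ libraries were close, and the SB505124 library with doxycycline was the lowest. The log2 ratios were 3.04 (2.98 to 3.11) without and 4.34 (4.25 to 4.43) with doxycycline. Smad7 read 320.5 and 1022 without doxycycline and 355 and 1710.0 with it, a ratio of 1.67 (1.50 to 1.85) and 2.27 (2.12 to 2.42). Skil read 1414 and 3863 without and 1147 and 5262 with doxycycline, a ratio of 1.45 (1.37 to 1.53) and 2.20 (2.11 to 2.28). For these 3 genes the ratio with doxycycline was the larger, and the intervals did not overlap. The same held for Smurf1, at 0.41 (0.33 to 0.48) without and 0.68 (0.61 to 0.75) with doxycycline. It also held for Tgif1, at 0.15 (0.07 to 0.22) and 0.66 (0.59 to 0.73).

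Klf10 was the reverse: 1048 and 2378 without and 1221 and 1799 with doxycycline, a log2 ratio of 1.18 (1.08 to 1.28) and 0.56 (0.46 to 0.66). Ski read 3487 and 6687 without and 3256 and 6509.6 with doxycycline, with ratios of 0.94 (0.88 to 1.00) and 1.00 (0.94 to 1.06), just under the 2-fold line. Smurf1 read 2347, 3111, 2631 and 4211 in the order without doxycycline (SB505124, TGFβ) and with it (SB505124, TGFβ), and Smurf2 read 1804, 2076, 2073 and 2559. Both were higher under TGFβ, by less than 2-fold. In the same order Tgif1 read 2867, 3171, 2262 and 3578, and Tgif2 181, 311, 86.3 and 148. Tgif2 was the member that differed most with doxycycline under TGFβ, at a log2 ratio of -1.06 (-1.38 to -0.77), and it was equally low under SB505124, -1.06 (-1.41 to -0.74). Bambi read 63.1, 58.8, 57.3 and 61.1, and no ratio of its TGFβ and SB505124 libraries was separable from 0 at this depth.

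**Figure D4:**
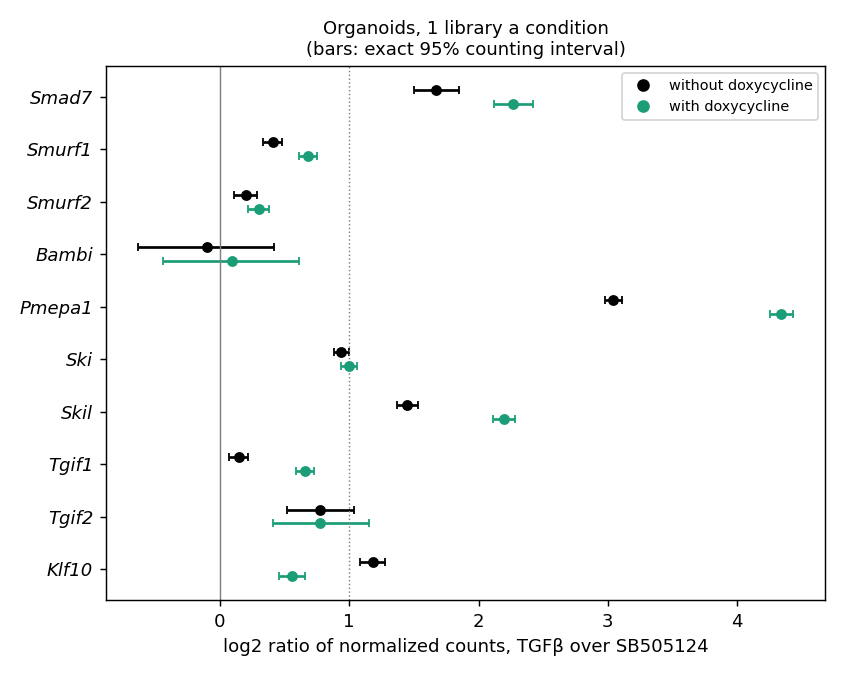
Log2 ratio of normalized counts under TGFβ (1.5 h) over SB505124 (6 h) in organoids without (black) and with doxycycline (green), 1 library a condition; bars are exact 95% counting intervals, the dotted line marks 2-fold. Pmepa1 has the largest ratios (3.04 and 4.34), Klf10 is the only gene whose green interval lies wholly left of its black one, and the Bambi intervals span 0.

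Comparing doxycycline with none, 2 members were 2-fold lower under SB505124 (Pmepa1 and Tgif2) and none higher, beside 9.57% of genes lower, 7.93% higher and 17.5% either way. Under TGFβ 1 was lower (Tgif2) and none higher, beside 9.6% lower, 7.84% higher and 17.4% either way. Of 12 other direct SMAD2/3 targets, 4 were 2-fold higher under TGFβ without and 7 with doxycycline, and none was 2-fold lower. Among all genes 3.56% and 3.52% were 2-fold higher. Of 11 other brakes, 1 and 2 were 2-fold higher: Ldlrad4 in both, at log2 ratios of 2.26 and 2.66, and Dact2 with doxycycline, at 1.13. No gene tested from the lists of receptor and common SMADs, corepressor partners, or Arkadia and deubiquitinases reached 2-fold in either.

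Across the 16 libraries with replicates, after centring each gene within its table, Smad7 and Klf10 varied together (Pearson r = 0.98 on the log2 scale), as did Smad7 and Pmepa1 (0.97) and Ski and Pmepa1 (0.95). Smad7 and Tgif2 did not (0.01). The points share lines, treatments and days, so these are descriptions. Among 12371 genes, the one most like Smad7 was Usp49 (r = 0.983), which was also the closest to Pmepa1 (0.973). The closest to Klf10 was Smad7 itself (0.979), to Skil Nfatc2 (0.976), to Ski Rnf19b (0.954), to Tgif2 Tcf7l1 (0.983), to Tgif1 Lrrc8d (0.968), to Smurf2 Phip (0.962), to Smurf1 Ccdc88c (0.938) and to Bambi Htra3 (0.912).

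Within a pair of related genes, the ratio of their normalized counts changed with condition, though gene length keeps the ratio itself from being read as a ratio of transcripts. Skil over Ski was 0.79 and 1.02 in WT PDA cells under SB505124 and 3.00 and 3.05 under TGFβ, and 1.06 and 1.13 against 2.98 and 3.92 in KO. In embryoid bodies at day 4 it was 2.97 and 3.22 in WT and 5.50 and 5.69 in KO. Tgif1 over Tgif2 ran from 31.6 to 39.6 in WT PDA cells and from 234 to 624 in KO, where Tgif2 has 7 to 18 reads a library. Smurf1 over Smurf2 was 4.57 and 4.78 in KO PDA cells under SB505124, above the 2.68 and 3.31 of WT. The organoid ratios of Skil over Ski ranged from 0.35 to 0.81.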

How the data were processed

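RNA-seq was read from 3 deposited tables of the authors' normalized signal, 1 value per gene and library; per the labels' protocols the kit was TruSeq RNA v2, which does not mark strand. Build mm10 and the tools HTSeq 0.6.1p1, Bowtie2, HOMER, DESeq2 3.4 and FastQC 0.11.5 are listed, with no roles, per the submitters' processing notes. Dividing by each library's smallest step gave whole reads (tolerance 0.001) for 100% of values, except that the step of WT day 0 replicate 1 lay too close to 1 to be recovered, so count tests were run on the PDA table alone. The members, lists and tests were chosen with earlier results of these data known. The genes named are the members, Rreb1, up to 3 called genes per list and contrast by adjusted p (organoids: by ratio, at 50 or more in the higher library) and the closest gene to each member.

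Genes with at least 10 in at least 2 of 8 libraries entered limma 3.58.1 (R 4.3.3, trend) on log2(value + 1), over all 4 groups of a table; fold changes are on that scale, which understates low genes. P-values were two-sided and adjusted by Benjamini-Hochberg over all genes tested, with 0.05 as the threshold. Organoid genes had a mean of at least 10 and no test. Alternatives were a pseudocount of 5, no filter, a filter at 50, quantile and total-count scaling, the compared groups alone, a replicate block, each library left out, and edgeR 4.0.16 and DESeq2 1.42.0 on recovered PDA reads. The pipeline was tested on simulated data with a set spread and no genes of few reads. That test covered only TGFβ over SB505124 in WT PDA cells and day 4 over day 0 in WT embryoid bodies, so no interaction. Without strand, reads of an antisense neighbour cannot be told apart.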

Additional observations from a re-analysis of the deposited data

Results flagged for a closer look

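A test of the difference between the lines called 10 member responses (limma interaction, adjusted p under 0.05). Values are KO minus WT on the log2 scale. Among all genes tested, the same test called 21.8% in PDA cells and 55.7% in embryoid bodies. The member calls are therefore not read as particular to the members. In PDA cells the response to TGFβ was smaller or reversed in KO for Smurf1 (-0.77), Skil (-0.71), Ski (-0.60) and Smurf2 (-0.50). Of these, Smurf1 kept its call under every alternative run, whereas the others lost theirs without some single libraries (adjusted p up to 0.0578 for Skil, 0.11 for Ski and 0.115 for Smurf2), and Ski (0.0584) and Smurf2 (0.0645) also with the replicate block. In embryoid bodies the change from day 0 to day 4 was lower in KO for Bambi (-1.72) and Smurf2 (-0.37) and higher in KO for Skil (1.06), Klf10 (0.86), Tgif2 (0.67) and Smad7 (0.55). Skil and Smurf2 are in both groups; Skil differed downward in PDA cells and upward in embryoid bodies, and Smurf2 downward in both. The 2 tables were normalized separately and the 2 differences were not tested against each other.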

How the results depend on the processing

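Of 100 tests of a member in a contrast, 60 were called. The share of all genes called in the same contrasts ran from 21.8% (PDA interaction) to 67.2% (KO against WT, day 0). The 60 are therefore not read as particular to the members. Of them, 48 kept the call under every alternative run and 12 lost it under at least 1 (6 only when a library was left out). Another 17 tests gained a call, and no called value changed sign. DESeq2 and edgeR were not run on the embryoid body table. With 1 library left out, its group keeps a lone library that is assumed to vary like the other groups. The members called then ranged, in PDA cells, from 7 to 8 (TGFβ in WT), 5 to 7 (TGFβ in KO), 1 to 5 (interaction), 2 to 5 (KO against WT, SB505124) and 2 to 6 (KO against WT, TGFβ), and the genes called from 2254 to 5183, 2956 to 5931, 764 to 3881, 5512 to 7689 and 3212 to 6148. The lowest numbers of genes called came without either WT TGFβ library (TGFβ in WT, and KO against WT under TGFβ), either KO SB505124 library (TGFβ in KO), or any of these 4 (interaction). The labels give replicate numbers but no pairing, and same-numbered deviations from the group means correlated at -0.51 to 0.14 in PDA cells and -0.03 to 0.09 in embryoid bodies. The replicate block gave 2 members and 1596 genes in the PDA interaction, where Ski (adjusted p 0.0584) and Smurf2 (0.0645) lost their calls; it also ended those of Klf10 in KO against WT under SB505124 (0.0531) and Smurf1 in KO under TGFβ (0.0797), and changed no other member's call. Quantile scaling called 7 members, 4 higher and 3 lower, in KO against WT at day 0. After rescaling to equal totals the median of all genes was -0.16 (from 0; KO against WT, SB505124), 0.13 (from 0.02; TGFβ in KO), -0.10 (from -0.02; KO against WT, TGFβ) and -0.11 (from -0.01; KO against WT, day 4), and the genes called higher and lower became 2975 and 4901 (from 3828 and 3600), 3830 and 1802 (from 2731 and 2382), 2360 and 3305 (from 2808 and 2508) and 3428 and 5331 (from 4236 and 4319); in the PDA interaction they became 1869 and 1388 (from 1284 and 1602).

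Some uncalled values changed sign. Under rescaling these were, in PDA cells, Pmepa1 (-0.087), Ski (-0.097) and Smurf2 (-0.053) in KO against WT under SB505124, Tgif1 in KO under TGFβ (0.061), and Tgif1 (0.005) and Klf10 (0.042) in the interaction, and, in embryoid bodies, Smurf1 in KO against WT at day 0 (-0.014), at day 4 (-0.015) and in the interaction (-0.001). Under quantile scaling they were Bambi (0.007) and Smurf1 (-0.052) in KO against WT at day 0, Pmepa1 (-0.070) and Ski (-0.017) in KO against WT under SB505124, and Tgif1 under TGFβ in KO (0.002), in WT (-0.005) and in the interaction (0.007). With 1 library left out, values spanning 0 in PDA cells ran from -0.571 to 0.988 (Bambi), -0.066 to 0.199 (Pmepa1) and -0.022 to 0.134 (Ski) in KO against WT under SB505124, and from -0.221 to 0.090 (Pmepa1) and -0.072 to 0.026 (Smurf1) under TGFβ. They ran from -0.174 to 0.075 (Tgif1) and -0.851 to 0.214 (Tgif2) for TGFβ in KO and from -0.035 to 0.068 (Tgif1) for TGFβ in WT. In the interaction they ran from -1.543 to 0.016 (Bambi), -0.100 to 0.043 (Klf10), -0.287 to 0.023 (Pmepa1), -0.190 to 0.058 (Tgif1) and -1.042 to 0.024 (Tgif2). In embryoid bodies they ran from -0.017 to 0.164 (Pmepa1, KO against WT at day 0) and -0.003 to 0.090 (Smurf1, interaction). The cause of these shifts was not tested. Of 40 organoid ratios, 6 moved past their counting interval when rescaled, among them Ski with against without doxycycline under TGFβ (-0.04, then 0.02). Few reads limit Bambi and Tgif2 in PDA cells.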
